A study of Homo sapiens with 6 samples.

Results

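The genes described here run the unfolded protein response and its machinery in the endoplasmic reticulum (ER). They are 39 protein-coding genes, chosen by symbol for their function, with earlier results of these data known. They comprise ER chaperones outside the calnexin cycle, unfolded protein response sensors, and factors of ER-associated degradation. All 39 were found among the 31582 genes of the deposited count table, 38 by their symbol and ERO1B by its gene identifier, since the table lists it as ERO1LB. All 39 were also among the 16394 genes with enough counts to be tested. The libraries were made from polyadenylated RNA of MDA-MB-231, an established human breast cancer cell line that lacks hormone receptors and HER2 amplification and has a mesenchymal phenotype. Of the 6 libraries, 3 came from MDA-MB-231-shCALR cells, which carry a short hairpin RNA against CALR (knockdown replicates 1 to 3), and 3 from MDA-MB-231-NTC cells, the control line (control replicates 1 to 3). CALR encodes calreticulin, a calcium-binding lectin chaperone of the ER, which the series title places downstream of HIF-1 and upstream of Wnt/beta-catenin signalling. The labels leave unsaid whether libraries with the same label derive from separate cultures, how many hairpins were used or whether the lines are clones, so p-values measure only the spread between these libraries.

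Proteins that enter the secretory pathway fold in the ER lumen with the help of HSP70 and HSP90 chaperones, J-domain and nucleotide exchange partners, disulphide isomerases and prolyl isomerases. Chains that fail to fold are recognised, pulled back to the cytosol and degraded. When unfolded chains build up, the 3 membrane sensors IRE1 (ERN1), ATF6 and PERK (EIF2AK3) signal to the nucleus: IRE1 splices the mRNA of the transcription factor XBP1, ATF6 is cut in the Golgi by the proteases encoded by MBTPS1 and MBTPS2, and PERK phosphorylates the initiation factor eIF2alpha, which favours translation of ATF4. Gene counts do not separate spliced from unspliced XBP1, nor cut from uncut ATF6, so the values below are transcript amounts and not sensor activity.

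ATF6 and XBP1 act through short promoter elements, which were searched in the promoters of these genes. RefSeq promoter windows on GRCh38.p14, from 250 bases before to 50 bases after each start site, were given for 38 of the 39 genes (43 windows), without DERL1. The ER stress response element (ERSE) was searched as CCAAT, any 9 bases and CCACG, its variant ERSE-II as ATTGG, any 1 base and CCACG, and the unfolded protein response element (UPRE) as TGACGTGG, each on both strands. Counted by gene, with a gene holding an element when any of its windows does, 6 of the 38 held an ERSE (15.8%, against 0.0916% of the 27305 genes with a window of that length), 3 an ERSE-II (7.89% against 0.0696%) and 4 a UPRE (10.5% against 0.927%). In all, 12 of the 38 held at least 1 element (31.6% against 1.08%). Since the genes were chosen for their part in this response, a higher share follows from the choice and is no test. Most of the 38 held no exact match, among them PDIA4, DNAJB9, MANF and SEL1L, which textbooks describe as induced through ATF6 or XBP1. A match is a description of letters and not of binding, and HYOU1 and HSP90B1 hold 2 ERSE-type matches each. The ERSE matches follow in the gene's own orientation, 5′ to 3′, with the 2 fixed ends in capitals. A match that starts with CGTGG lies on the opposite strand.
HSPA5: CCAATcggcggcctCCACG
HSP90B1, distal: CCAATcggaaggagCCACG
HSP90B1, proximal: CGTGGtgcggcgcgATTGG
PDIA6: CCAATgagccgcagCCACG
CRELD2: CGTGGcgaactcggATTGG
ERO1B: CGTGGtcccgcctcATTGG
XBP1: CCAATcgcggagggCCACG
Their positions on GRCh38 were chr9:125241391-125241409 for HSPA5 (minus strand, 66 to 48 bases before the start), chr12:103930216-103930234 and chr12:103930321-103930339 for HSP90B1 (plus strand), chr2:10812853-10812871 for PDIA6 (minus strand), chr22:49918554-49918572 for CRELD2 (plus strand), chr1:236282183-236282201 for ERO1B (minus strand) and chr22:28800603-28800621 for XBP1 (minus strand, 52 to 34 bases before the start).

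The ERSE-II matches, also in gene orientation with the fixed letters in capitals, belonged to HERPUD1, SDF2L1 and HYOU1.
HERPUD1: ATTGGgCCACG
SDF2L1: CGTGGaCCAAT
HYOU1, both matches: CGTGGtCCAAT
They lie at chr16:56932025-56932035 for HERPUD1 (plus strand), chr22:21642114-21642124 for SDF2L1 (plus strand), and chr11:119057380-119057390 and chr11:119057274-119057284 for HYOU1 (minus strand). The distal HYOU1 match overlaps its UPRE, and the other UPRE matches were in DNAJC10, TXNDC5 and TXNDC11. The HSPA5 promoter is printed at length, since HSPA5 is the standard reporter of this response. Shown are the 250 bases before its start (chr9:125241344-125241593, minus strand, outside annotated exons), with the 1 exact ERSE match in capitals. Near matches to the element were not searched and are not marked.
HSPA5 promoter: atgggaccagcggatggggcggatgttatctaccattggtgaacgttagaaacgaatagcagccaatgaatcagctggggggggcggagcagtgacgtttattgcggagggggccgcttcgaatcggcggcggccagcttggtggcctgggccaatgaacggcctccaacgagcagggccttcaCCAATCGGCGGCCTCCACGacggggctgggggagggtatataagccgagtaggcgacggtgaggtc
XBP1 is itself a target of ATF6. The 85 bases from 113 to 29 before its start (chr22:28800598-28800682, minus strand) are shown with the exact ERSE match in capitals.
XBP1 promoter: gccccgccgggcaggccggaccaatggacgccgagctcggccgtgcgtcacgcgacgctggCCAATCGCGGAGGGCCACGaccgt
Genes with an element did not share a direction. Among the 6 with an ERSE, the log2 fold changes ran from −0.36 for ERO1B to 0.88 for CRELD2, with HSPA5 at 0.01 and XBP1 at 0.04. Among the 3 with an ERSE-II, they were −0.18 for HERPUD1, 0.49 for HYOU1 and 0.55 for SDF2L1.

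Library totals lay between 34639090 and 42425310 counts. CALR (chr19:12938578-12944489, plus strand), the targeted gene, had normalised counts of 493, 66.4 and 110 CPM (counts scaled to library size) in knockdown replicates 1 to 3, and 1213, 979 and 926 CPM in control replicates 1 to 3. Its level in the knockdown libraries was 47.5%, 6.39% and 10.6% of the control mean, with an exact two-sided permutation p of 0.1, the smallest that 3 against 3 libraries allow. The fitted log2 fold change was −2.22 ± 0.64 (SE, edgeR adjusted p = 0.209), and −3.55 without knockdown replicate 1. The 6 mesenchymal markers of the line were at 1 CPM or more in all libraries, with a summed level of 4681 to 5890 CPM in knockdown and 3501 to 3990 CPM in control libraries. VIM and MSN made up most of that sum, and EGFR was lower in all knockdown libraries, at 99.5, 128 and 109 CPM against 220, 180 and 202 CPM. Of 5 genes listed as absent from the line, ESR1, PGR and CDH1 were under 3 CPM in every library, while KRT19 and GATA3 were present. All 5 blood markers were under 3 CPM, at summed levels of 0.571 to 1.07 and 0.878 to 1.30 CPM in the 2 groups, with HBB at 0. Fibroblast and endothelial markers summed to 10.2 to 15.9 and 7.29 to 14.6 CPM, and the dividing-cell markers MKI67, TOP2A and CCNB1 to 309.98 to 639.6 and 272 to 512 CPM. MKI67 was at 229.7, 183 and 70.7 CPM in knockdown replicates 1, 2 and 3 and at 157, 79.5 and 99.9 CPM in the controls, and TOP2A was also lowest in knockdown replicate 3 (63.0 CPM). In bulk RNA, fewer cells in a state and less RNA per cell cannot be told apart. Each knockdown library also had its own trend with the GC content of transcripts: between 38.1% and 63.8% GC it changed by 0.47, −0.59 and 0.79 log2 units in knockdown replicates 1 to 3, and by −0.38 to −0.06 in the controls. Results are therefore also given after a GC correction, which subtracts that trend in each library.

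Across the 39 genes, most folding factors had positive differences. The 3 sensors had negative ones (ERN1 −0.58, EIF2AK3 −0.25 and ATF6 −0.01), and XBP1, ATF6B, MBTPS1 and MBTPS2 had both signs. None of the 39 passed the adjusted test, and the 3 knockdown libraries differed from each other. At a nominal (unadjusted) p below 0.05 in edgeR's quasi-likelihood test, 7 of 39 genes were higher in knockdown, against 8.17% of all genes tested. These were the folding factors PDIA4, P4HB, MANF, CRELD2, PPIB and SIL1 and the degradation lectin OS9. By the same measure 3 were lower, against 7.36% of all genes, namely the degradation factors SEL1L and EDEM3 and the sensor ERN1. After Benjamini-Hochberg adjustment over all genes, 0 of the 39 passed a threshold of 0.05 in edgeR (0% of all genes passed). In limma-voom 0 did (0% of all genes), and in DESeq2 0 did although 3.23% of all genes passed. With no low-count filter 5 passed (3.13% of all genes), and without knockdown replicate 2 there were 10 (15.5%). With all libraries in the fit, the 7 higher and 3 lower genes named above had edgeR adjusted p-values of 0.215 to 0.321. Leaving out a library moved these counts and also the shares over all genes. The 39 genes had 13 higher and 4 lower without knockdown replicate 2 (17.9% and 17.7% of all genes), 2 and 4 without knockdown replicate 3 (7.83% and 9.03%), and 3 and 0 without knockdown replicate 1 (5.33% and 5.39%). They had 4 and 0 without control replicate 1 (6.35% and 4.7%), 3 and 2 without control replicate 2 (3.86% and 4.62%), and 2 and 0 without control replicate 3 (2.87% and 4.36%). With limma on log2(FPKM + 1) values 3 were higher and 4 lower (5.5% and 10.7%). All 3 knockdown libraries lay above all controls for 6 of the 39 genes (ERP29, CRELD2, PPIB, TXNDC5, DERL1 and SEC61A1), against 11.3% of all genes, and below them for 5 (DNAJB9, ERO1B, SEL1L, EDEM3 and EIF2AK3), against 11.2%. Among the 6, TXNDC5 had only 12 to 21 reads in each library, too few to judge it on its own row. TXNDC5 is also counted in the summaries that follow. The shares of genes fully apart, and the 3 lower genes, are near those of all genes.

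Fold changes ran from −0.80 to 0.88 on the log2 scale, with 27 of 39 genes positive. Their median was 0.17, where that of all genes tested was close to 0. With library size alone as the scaling, which moved the median of all genes to −0.13, the median of the 39 was 0.02, with 20 positive. The distance between both medians was 0.17 with TMM scaling and 0.15 with library size alone, and it was 0.21 after the GC correction. It was smaller, at 0.11, when only genes at 1 CPM or more in every library were kept. On the filtered log2(FPKM + 1) and log2(FPKM + 0.1) scales it was 0.10 and 0.12, and 0.03 on log2(FPKM + 1) with no filter. The plot of fitted differences shows each gene with and without the GC correction.

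**Figure D1:**
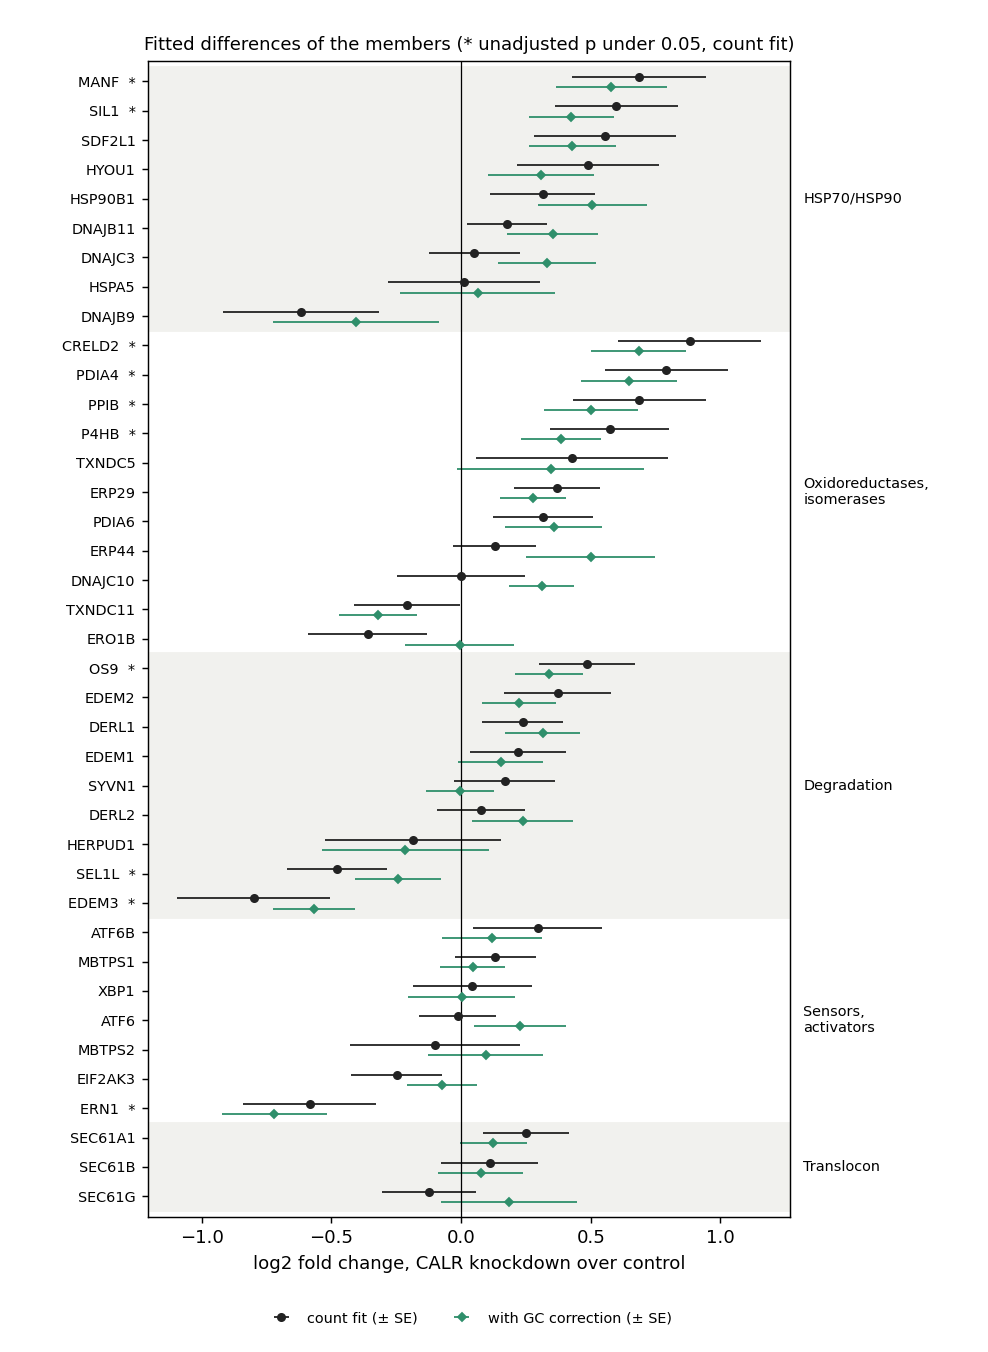
Log2 fold change of each of the 39 genes, CALR knockdown over control, ordered by role (y axis, shaded blocks); circles are the count fit and diamonds the fit with GC correction, bars are 1 SE, 3 against 3 libraries. Asterisks mark the 10 genes at a nominal p below 0.05. Most chaperones and oxidoreductases lie to the right of 0, while EDEM3, SEL1L, ERN1 and DNAJB9 lie to the left in both fits.

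The knockdown libraries differed from each other more than the controls did, with a median SD over the 39 genes of 0.32 log2 units against 0.11. Relative to the control mean, the median of the 39 genes was 0.10 log2 units for knockdown replicate 1, −0.02 for replicate 2 and 0.42 for replicate 3. Control libraries had 0.05, 0.01 and −0.01. After the GC correction these medians were 0.18, 0.01 and 0.44 in the knockdown libraries. Knockdown replicate 3 was the highest of all 6 libraries for 27 of 39 genes (69.2%), against 26.7% of all genes, and for 69.2% against 22.6% after the GC correction. The SD of log2 CPM was larger in the knockdown group for 36 of 39 genes (92.3%), against 82.6% of all genes. Knockdown replicates 1 and 3 both lay above all controls for 18 genes (46.2%, against 25.5% of all genes). In 12 of these (30.8%, against 14.3% of all genes) replicate 2 did not. The order of the libraries by this median (3, 1, 2) is not their order by remaining CALR. These patterns of libraries were described after the values had been seen. In replicate 3 MKI67 and TOP2A were low, but the dividing-cell marker CCNB1 was not. Whether that, the remaining CALR or the GC trend has a part in these patterns was not tested.

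**Figure D2:**
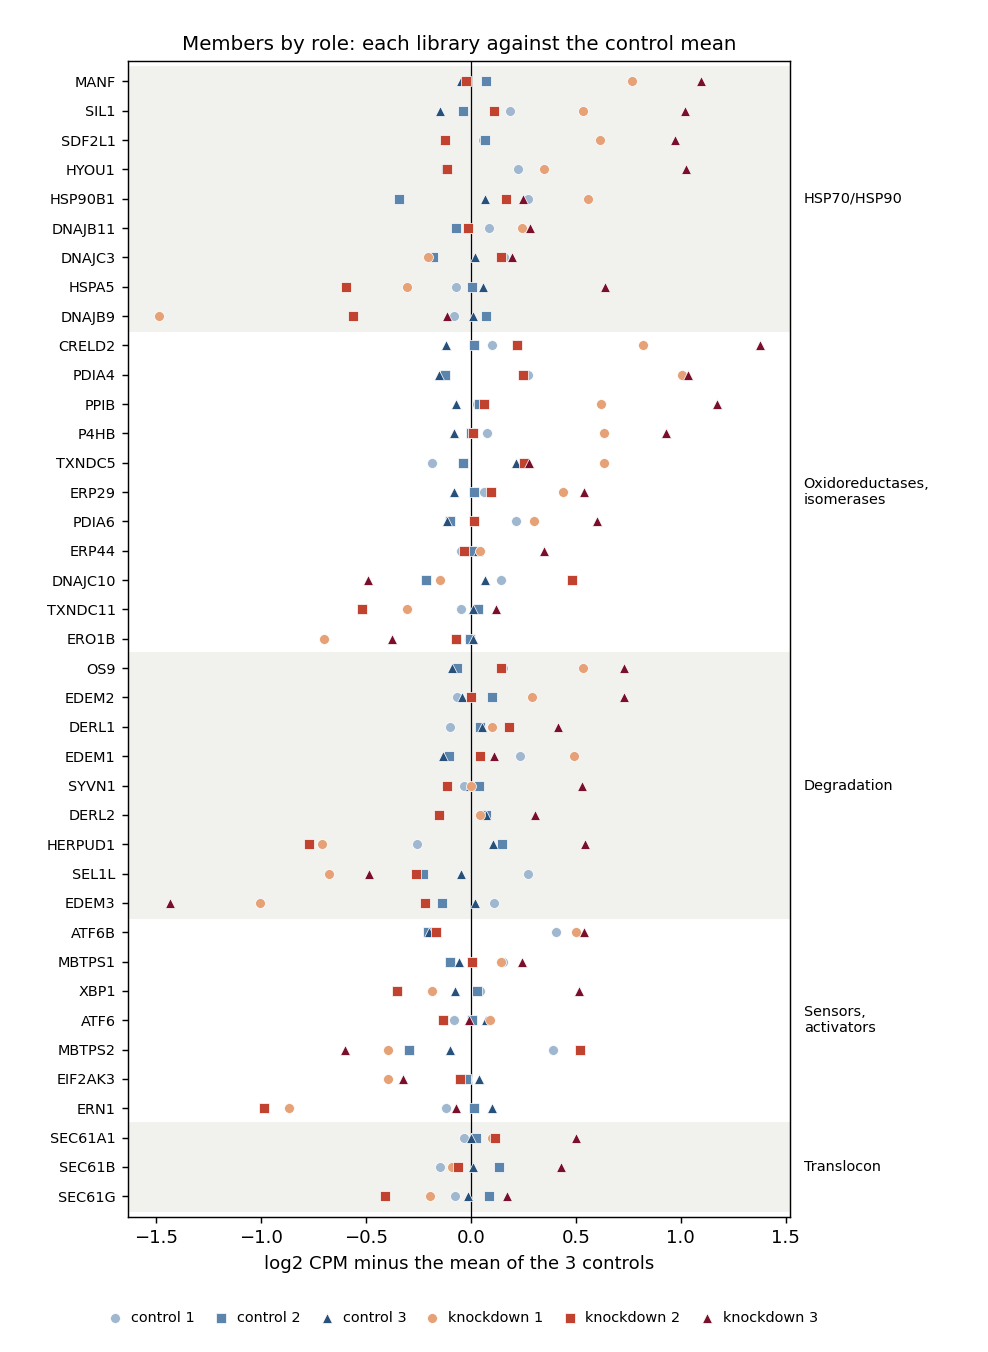
Difference of each library from the mean of the 3 controls, in log2 CPM (x axis), for each gene by role (y axis); blue marks are control and red marks knockdown libraries, with circles, squares and triangles for replicates 1, 2 and 3. Dark red triangles (knockdown replicate 3) lie farthest right in 27 of 39 rows, and knockdown squares (replicate 2) often sit among the controls.

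The HSP70 and HSP90 system of the ER comprised 9 genes, of which 8 were positive (median log2 fold change 0.31). Of these, 2 were higher and 0 lower at a nominal p below 0.05 (8.17% and 7.36% of all genes). Knockdown replicates 1, 2 and 3 had medians of 0.35, −0.02 and 0.64 over the 9 genes, against −0.04 to 0.09 for the controls. The count was 4 and 0 without knockdown replicate 2, 0 and 2 without replicate 3, and 0 and 0 without replicate 1, in fits whose shares over all genes are those given above. HSPA5 (chr9:125234853-125241330, minus strand), which encodes BiP, the HSP70 chaperone that also holds the sensors inactive, had 1006, 823 and 1931 CPM in knockdown and 1183, 1249 and 1295 CPM in control libraries. Knockdown replicates 1 and 2 thus lay below every control and replicate 3 far above them, and the fitted log2 fold change was 0.01 ± 0.29 (SE, edgeR adjusted p = 0.986). It was −0.43 without knockdown replicate 3 and 0.25 without replicate 2. HSP90B1 (chr12:103930107-103953645, plus strand), the ER HSP90 also called GRP94, had 1146, 875 and 923 CPM against 938, 614 and 816 CPM. The groups overlapped (0.31 ± 0.20, edgeR adjusted p = 0.463), and the value was 0.51 ± 0.21 after the GC correction.

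Among the partners of HSPA5, MANF and SIL1 were higher in knockdown at the nominal threshold. MANF (chr3:51385047-51389397, plus strand), a small ER protein that binds HSPA5 and can be secreted, had 412, 238 and 518 CPM in knockdown and 238, 254 and 234 CPM in control libraries. Replicates 1 and 3 stood apart from the controls and replicate 2 lay among them, for a log2 fold change of 0.69 ± 0.26 (edgeR adjusted p = 0.272), 0.44 without knockdown replicate 3 and 0.95 without replicate 2. SIL1 (chr5:138946720-139293557, minus strand), a nucleotide exchange factor for HSPA5, had 70.6, 52.7 and 98.8 CPM against 55.4, 47.4 and 43.9 CPM. The same 2 knockdown libraries were high, and the value of 0.60 ± 0.24 (edgeR adjusted p = 0.287) was 0.35 without knockdown replicate 3. HYOU1, the other large exchange factor, had 313, 227 and 499 CPM against 287, 226 and 227 CPM (0.49 ± 0.27). SDF2L1, which works with the J-domain protein DNAJB11, had 25.3, 15.2 and 32.4 CPM against 17.2, 17.3 and 15.1 CPM (0.55 ± 0.27). In both genes replicate 2 was at the level of the controls.

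Besides DNAJC10, which is described with the oxidoreductases below, the list held 3 J-domain partners, which hand clients to HSPA5. None of these 3 passed the nominal threshold. DNAJB9 (chr7:108569568-108574850, plus strand), also known as ERdj4 and linked to the repression of IRE1, had 23.0, 43.8 and 59.6 CPM in knockdown and 61.0, 67.9 and 65.0 CPM in control libraries. All 3 knockdown libraries were below all controls, replicate 3 only just, with a log2 fold change of −0.62 ± 0.30 (edgeR adjusted p = 0.361). The value was −0.32 without knockdown replicate 1, −0.94 without replicate 3 and −0.40 ± 0.32 after the GC correction. DNAJB11 was at 0.18 ± 0.15 (edgeR adjusted p = 0.581) and DNAJC3, also known as an inhibitor of PERK, at 0.05 ± 0.18 (0.901).

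The oxidoreductases and isomerases, which form disulphide bonds or turn proline bonds, held the highest values of the 39 genes. Of 11 genes 8 were positive, with a median of 0.37, and 4 were higher and 0 lower at a nominal p below 0.05 (8.17% and 7.36% of all genes). Medians over the 11 genes were 0.44 for knockdown replicate 1, 0.06 for replicate 2 and 0.54 for replicate 3, against −0.07 to 0.06 for the controls. Without knockdown replicate 2 the count was 6 and 1 (17.9% and 17.7% of all genes), and without knockdown replicate 3 it was 2 and 0 (7.83% and 9.03%). PDIA4 (chr7:149003062-149028641, minus strand), a disulphide isomerase, had 425, 251 and 434 CPM in knockdown and 256, 194 and 191 CPM in control libraries. Replicates 1 and 3 were far above the controls and replicate 2 just below the highest of them, a 1.73-fold difference in the fit (log2 0.79 ± 0.24, edgeR adjusted p = 0.215). With any 1 library left out it was 0.68 to 1.01, and it was 0.65 ± 0.19 after the GC correction. CRELD2 (chr22:49918167-49927540, plus strand), a stress-inducible protein with disulphide isomerase activity, had 42.7, 28.1 and 62.9 CPM against 25.9, 24.5 and 22.3 CPM. Its groups did not overlap, and its 1.84-fold difference was the largest among the 39 genes (0.88 ± 0.28, edgeR adjusted p = 0.221). It was 0.57 without knockdown replicate 3 and 0.69 ± 0.18 after the GC correction.

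PPIB (chr15:64155812-64163205, minus strand), the prolyl isomerase cyclophilin B, had 607, 413 and 892 CPM in knockdown and 404, 406 and 377 CPM in control libraries. All knockdown libraries were above all controls, replicate 2 only by a small margin (0.69 ± 0.26, edgeR adjusted p = 0.269), and the value was 0.38 without knockdown replicate 3. Of its exon bases, 27.2% are shared with SNX22 on the other strand, whose reads may be included because the strand setting of the counting is unknown. P4HB (chr17:81843159-81860694, minus strand), the classical protein disulphide isomerase, had 1159, 752 and 1420 CPM against 786, 746 and 707 CPM. Its knockdown replicate 2 lay among the controls (0.57 ± 0.23, edgeR adjusted p = 0.289), and the value was 0.37 without knockdown replicate 3 and 0.39 ± 0.15 after the GC correction. ERP29, a chaperone of the same fold without the redox motif, had 394, 311 and 422 CPM against 304, 294 and 275 CPM, all above the controls (0.37 ± 0.17, edgeR adjusted p = 0.331).

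The remaining oxidoreductases had smaller differences. PDIA6, a disulphide isomerase that also acts on IRE1, was at 0.32 ± 0.19, and ERP44, which retains oxidases in the early secretory pathway, at 0.13 ± 0.16. The reductase DNAJC10, with a fold change of almost exactly 0, had 122, 189 and 96.3 CPM in knockdown and 149, 116 and 141 CPM in control libraries, so that here replicate 2 was the highest and replicate 3 the lowest of the 6. TXNDC11 (−0.21 ± 0.20) and the oxidase ERO1B were the negative members besides it. ERO1B had 5.03, 7.82 and 6.30 CPM against 8.15, 8.18 and 8.27 CPM, all below the controls (−0.36 ± 0.23), and its value was −0.01 ± 0.21 after the GC correction. TXNDC5 could not be judged on its own row, at 0.317 to 0.600 CPM, since 60.6% of its exon bases are shared with the read-through gene BLOC1S5-TXNDC5. That row had 380, 304 and 434 CPM in knockdown and 262, 259 and 255 CPM in control libraries (0.53 ± 0.17, edgeR adjusted p = 0.226), a further oxidoreductase row with all 3 knockdown libraries above the controls.

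The degradation factors comprised 9 genes, of which 6 were positive, with a median of 0.17. At a nominal p below 0.05, 1 was higher and 2 were lower, counts too small to set apart from the 8.17% and 7.36% of all genes. Without knockdown replicate 1 they were 0 and 0, and without replicate 3 they were 0 and 1. OS9 (chr12:57693955-57721557, plus strand), a lectin that delivers glycoproteins to the ubiquitin ligase, had 198, 151 and 227 CPM in knockdown and 153, 131 and 129 CPM in control libraries. Knockdown replicate 2 lay within the controls and the others above them (0.49 ± 0.19, edgeR adjusted p = 0.276), and the value was 0.34 ± 0.13 after the GC correction. SEL1L (chr14:81471549-81533861, minus strand), the scaffold of that ligase, had 35.7, 47.5 and 40.8 CPM against 68.9, 48.7 and 55.1 CPM. All 3 knockdown libraries were below all controls, replicate 2 narrowly (−0.48 ± 0.19, edgeR adjusted p = 0.291), and the value was −0.33 without control replicate 1 and −0.24 ± 0.17 after the GC correction.

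EDEM3 (chr1:184690231-184754913, minus strand), of the mannosidase-like family that trims glycans of terminally misfolded proteins, had 17.9, 30.9 and 13.3 CPM in knockdown and 38.9, 32.7 and 36.5 CPM in control libraries. Its groups did not overlap, and its log2 fold change was the lowest of the 39 (−0.80 ± 0.29, edgeR adjusted p = 0.265). It was −1.20 without knockdown replicate 2, −0.55 without replicate 3 and −0.57 ± 0.16 after the GC correction. Its relatives EDEM1 (0.22 ± 0.19) and EDEM2 (0.37 ± 0.21) had positive values, with edgeR adjusted p-values of 0.569 and 0.410. HERPUD1, a membrane protein that assembles the ligase complex and a known stress target, had 79.4, 76.0 and 189 CPM against 109, 144 and 139 CPM. As with HSPA5, replicates 1 and 2 lay below all controls and replicate 3 above them (−0.18 ± 0.34). The ligase SYVN1 (0.17 ± 0.19) and the channel proteins DERL1 (0.24 ± 0.16) and DERL2 (0.08 ± 0.17) had small differences, although DERL1 was above the controls in all 3 knockdown libraries, at 140, 148 and 174 CPM against 122, 135 and 135 CPM.

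The group of the sensors also held the homologue ATF6B, the proteases MBTPS1 and MBTPS2, and XBP1. Its 7 genes had no common direction, with 3 positive and a median of −0.01, although the 3 sensors were all negative, ATF6 close to 0. Of the 7, 0 were higher and 1 lower at a nominal p below 0.05 (8.17% and 7.36% of all genes), and 0 and 0 without knockdown replicate 1. ERN1 (chr17:64039142-64130819, minus strand), the IRE1 kinase and nuclease, had 18.8, 17.2 and 32.5 CPM in knockdown and 31.5, 34.5 and 36.7 CPM in control libraries. Replicates 1 and 2 were well below the controls and replicate 3 among them, and the nominal p was just below the threshold (−0.58 ± 0.26, edgeR adjusted p = 0.321). The value was −0.91 without knockdown replicate 3, −0.41 without replicate 2 and −0.72 ± 0.20 after the GC correction. EIF2AK3 (chr2:88556741-88627576, minus strand), which encodes PERK, had 20.8, 26.4 and 21.8 CPM against 27.0, 26.9 and 28.1 CPM, all below the controls (−0.25 ± 0.18, edgeR adjusted p = 0.499), and was at −0.07 ± 0.13 after the GC correction. ATF6 (chr1:161766294-161964070, plus strand) had 98.5, 84.3 and 92.0 CPM against 87.4, 92.7 and 97.2 CPM, with full overlap of the groups (−0.01 ± 0.15, edgeR adjusted p = 0.973, and 0.23 ± 0.18 after the GC correction).

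XBP1 (chr22:28794555-28800597, minus strand) had 113, 101 and 184 CPM in knockdown and 133, 131 and 122 CPM in control libraries. Its replicates 1 and 2 were below all controls and replicate 3 above them (0.04 ± 0.23, edgeR adjusted p = 0.939), and the value was −0.25 without knockdown replicate 3 and 0.21 without replicate 2. This shape was shared by 5 of the 39 genes (12.8%, against 3.31% of all genes): HSPA5, HERPUD1, XBP1, TXNDC11 and the translocon subunit SEC61G. ATF6B, the homologue of ATF6, was at 0.30 ± 0.25, and the proteases that cut ATF6 were at 0.13 ± 0.16 (MBTPS1) and −0.10 ± 0.33 (MBTPS2). The 3 subunits of the Sec61 channel, through which chains enter the ER, were at 0.25 ± 0.17 (SEC61A1), 0.11 ± 0.19 (SEC61B) and −0.12 ± 0.18 (SEC61G). SEC61A1 had 495, 499 and 653 CPM against 451, 470 and 462 CPM, so that all 3 knockdown libraries were above the controls. The 16 genes known from textbooks to be induced through ATF6 or XBP1 had a median of 0.20, with 13 positive. At the nominal threshold 3 were higher and 1 was lower (8.17% and 7.36% of all genes). Knockdown replicate 1 had a median of 0.27 over this set, replicate 2 of −0.07 and replicate 3 of 0.54, so it did not stand on the same side of the controls in all knockdown libraries.

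Levels per transcript length, as deposited FPKM (fragment counts scaled to transcript length and library depth), ran from abundant folding factors to scarce ones, with the 3 sensors in the lower part of the order. In control libraries PPIB was the most abundant of the 39, at 358 ± 10.6 FPKM (SD, n = 3), followed by HSPA5 at 311 ± 22.4 FPKM. Neither overlapped its next neighbour in the order, but HSPA5 (287 to 331 FPKM) overlapped HSP90B1 (211 to 311 FPKM) further down. P4HB at 280 ± 7.69 FPKM and HSP90B1 at 269 ± 51.8 FPKM overlapped each other, as did HSP90B1 and SEC61B and, below it, SEC61B and MANF (205 ± 10.9 FPKM). XBP1 was at 61.6 ± 1.76 FPKM, while the sensors were lower: ATF6 at 12.1 ± 0.96, EIF2AK3 at 5.53 ± 0.26 and ERN1 at 3.42 ± 0.35 FPKM. Some folding factors were at or below that range, with DNAJC3 at 11.6 ± 1.16, TXNDC11 at 9.20 ± 0.49 and DNAJC10 at 6.30 ± 0.74 FPKM. MBTPS2 (1.81 ± 0.42 FPKM) and ERO1B (1.75 ± 0.06 FPKM) were the lowest after TXNDC5. In the knockdown libraries PPIB reached 520 ± 161 FPKM, P4HB 377 ± 89.4 and MANF 298 ± 89.2, while HSPA5 was at 282 ± 115 FPKM.

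**Figure D3:**
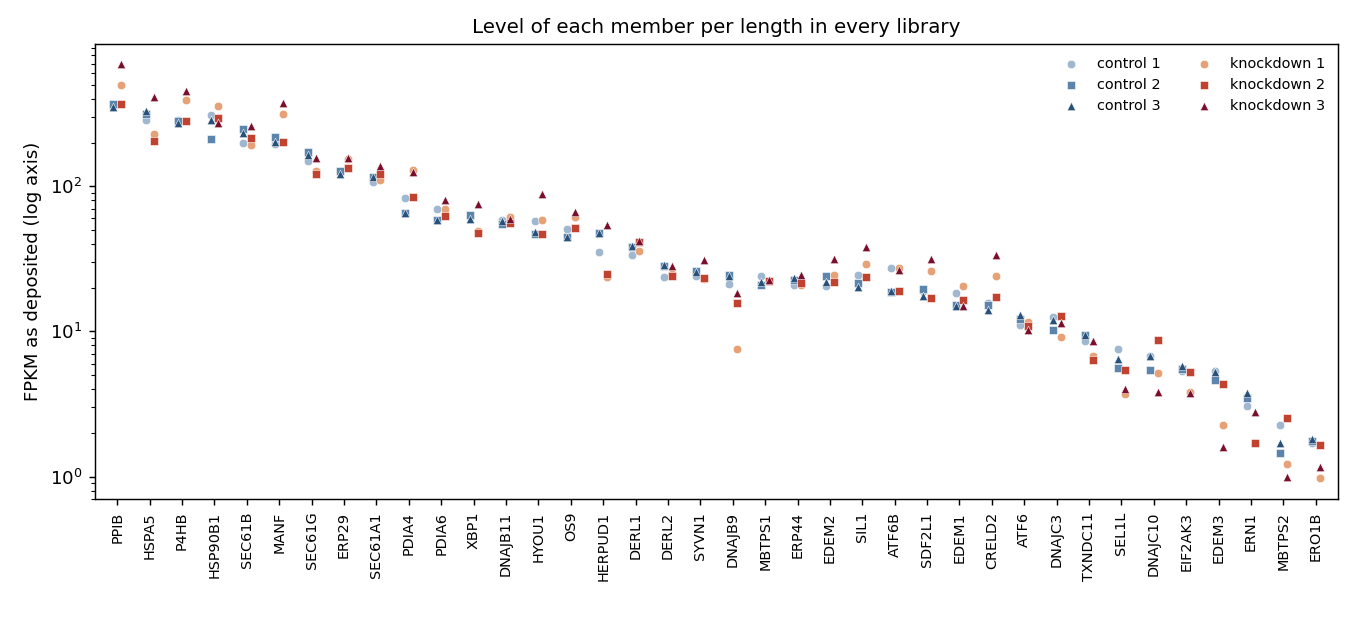
Deposited FPKM of 38 of the 39 genes in every library (log axis), in the order of their mean in the controls; blue marks are control and red marks knockdown libraries, by replicate. TXNDC5 is left out, since its reads are counted mostly on a read-through gene. Levels span from about 358 FPKM for PPIB to 1.75 FPKM for ERO1B in the controls, and the 3 sensors lie in the lower part.

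The fitted difference of a gene went with the GC content of its transcripts. Below 45% GC, 5 of 14 genes were positive, with a median of −0.06 (all genes in that range −0.19). Between 45% and 55%, 14 of 17 were positive, with a median of 0.24 (all genes 0.07), and at 55% or more all 8 were positive, with a median of 0.56 (all genes 0.17). After the GC correction the 3 medians were 0.21, 0.15 and 0.41, and the median of the 39 genes was 0.23. In that fit 10 of the 39 were higher and 2 lower at the nominal threshold (9.58% and 8.64% of all genes), and 0 passed edgeR's adjusted threshold. With the trend removed, the median of all genes was 0.02.

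**Figure D4:**
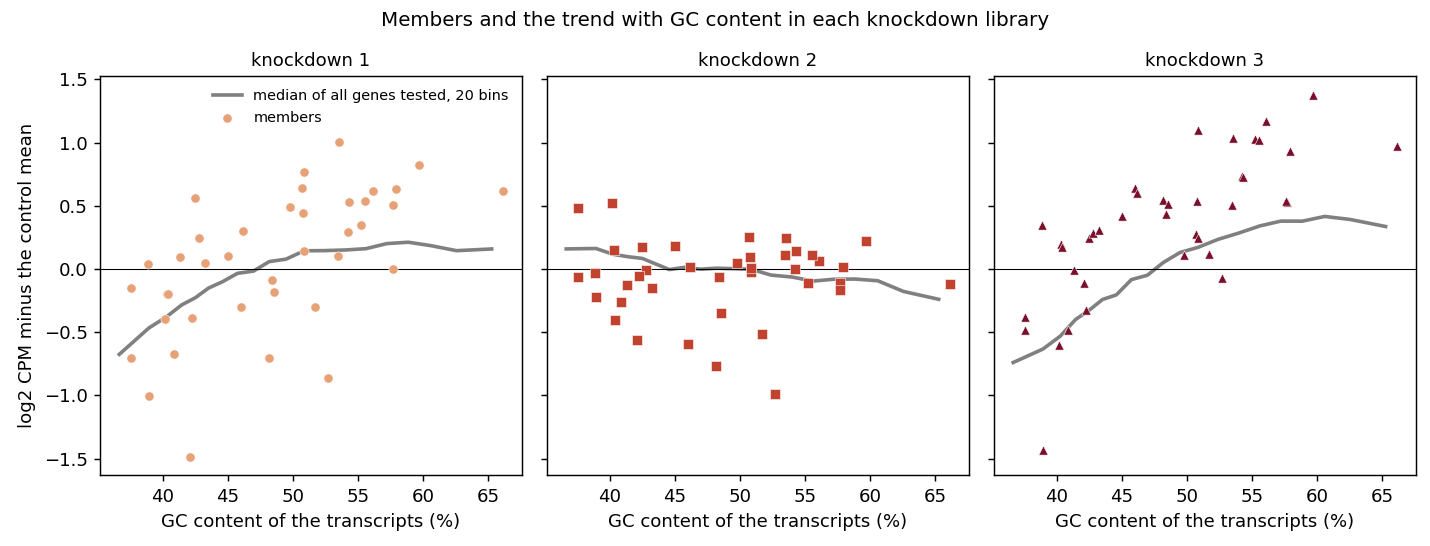
Difference of each of the 39 genes from the control mean in log2 CPM (y axis) against the GC content of its transcripts (x axis), 1 panel per knockdown library; the grey line is the median of all genes tested in 20 bins of GC content. The line climbs in replicates 1 and 3 and declines in replicate 2, and in replicate 3 most of the genes lie above it.

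Other genes of the same processes were taken from lists by function, drawn up with earlier results of these data known. Their counts at the nominal threshold are to be read against the 8.17% of all genes that were higher and the 7.36% that were lower. Of 29 further ER folding enzymes tested, 20 were positive, with a median of 0.12, and 1 was higher and 1 lower at a nominal p below 0.05. The higher was SUMF1, the sulphatase-activating enzyme (0.66 ± 0.23), and the lower was the prolyl isomerase FKBP10, at or under 8.57 CPM in all libraries, which is outside the naming rule by its low level and was named after its values were seen. Of 38 further degradation factors 24 were positive (median 0.10), with 2 higher and 1 lower. VCP, the ATPase that extracts chains from the membrane, had 484, 499 and 622 CPM in knockdown and 331, 355 and 334 CPM in control libraries, fully apart in all 3 (0.65 ± 0.16, edgeR adjusted p = 0.181). Its cofactor UFD1L was at 0.42 ± 0.19 and the deubiquitinase ATXN3 at −0.83 ± 0.21. In VCP, unlike MANF or P4HB, knockdown replicate 2 stood as far above the controls as replicate 1. Without knockdown replicate 2, where 17.9% of all genes were higher and 17.7% lower, 12 folding enzymes were higher and 6 lower, and 9 degradation factors were higher and 5 lower.

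Of 28 genes listed for entry into the ER, 3 were higher and 4 lower (8.17% and 7.36% of all genes), with a median of −0.02. They included ASNA1 (0.60 ± 0.23) and WRB (−0.52 ± 0.22) of tail-anchored protein insertion, and SEC63 (−0.60 ± 0.22), the J-domain partner of the channel. The 3 higher genes also include SND1 (0.52 ± 0.18), which was listed by symbol and is not an established factor of ER entry. Of 32 partners and parallel factors of the sensors, 2 were higher and 2 lower (median 0.15). The lower were UFM1, a ubiquitin-like modifier used at the ER (−0.72 ± 0.18, and −0.31 after the GC correction), and the adaptor NCK1 (−0.63 ± 0.16, and −0.36). The higher were RTCB, the ligase that joins the XBP1 exons after IRE1 cleavage (0.38 ± 0.16), and the initiation factor subunit EIF2B2 (0.38 ± 0.16). Of 9 ER-phagy receptors 0 were higher and 2 lower (median −0.06), among them CCPG1 (−0.57 ± 0.24), with 38.9% of its exon bases also in another gene of the same strand.

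Downstream of the sensors, PERK arm genes lay below the controls in 2 of the 3 knockdown libraries. Of 19 such genes, which other eIF2alpha kinases also drive, 3 were positive, with a median of −0.39, and 0 were higher and 4 lower at a nominal p below 0.05 (7.36% of all genes). Over the list, knockdown replicate 1 had a median of −0.65, replicate 2 of −0.996 and replicate 3 of 0.17, where the controls had −0.12 to 0.09. Leaving out knockdown replicate 3 gave a fitted median of −0.75 and 13 lower genes (9.03% of all genes in that fit), and leaving out replicate 2 gave −0.08. The 4 were CHAC1 (−1.35 ± 0.38), a glutathione-degrading enzyme, asparagine synthetase ASNS (−1.17 ± 0.21), PSAT1 of serine synthesis (−0.90 ± 0.19) and the transcription factor CEBPG (−0.72 ± 0.15). ATF4 itself had 445, 313 and 596 CPM against 490, 667 and 612 CPM, and DDIT3, which encodes CHOP, 40.6, 43.5 and 98.4 CPM against 64.0, 106 and 96.1 CPM. In both genes replicates 1 and 2 were below all controls and replicate 3 lay among them. Of 8 transcripts described as cut by IRE1, 2 were higher and 0 lower (median 0.45), among them COL6A1, at 85.2, 80.8 and 55.8 CPM against 48.2, 40.4 and 41.5 CPM (0.77 ± 0.20). The other was BLOC1S1, at 4.03, 3.35 and 5.61 CPM against 3.04, 2.39 and 2.34 CPM (0.74 ± 0.29), with 29.8% of its exon bases also in another gene of that strand. The plot of library medians sets these lists beside the roles of the 39 genes.

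**Figure D5:**
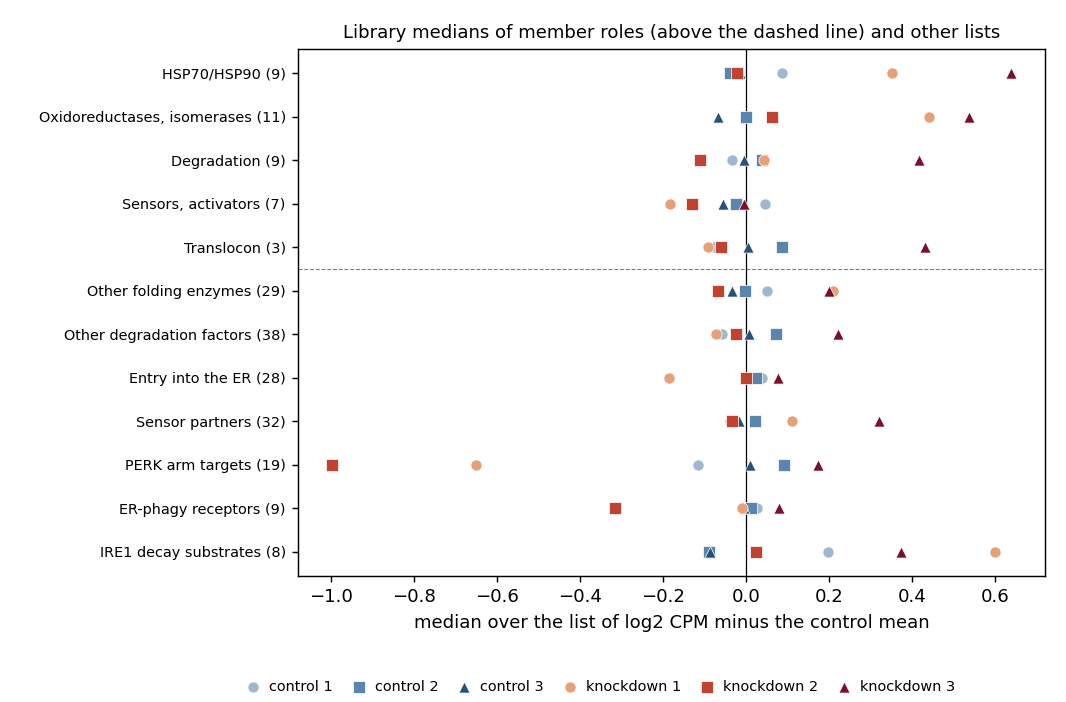
Median over each list of the difference from the control mean in log2 CPM (x axis), for every library; lists above the dashed line are roles of the 39 genes, those below are other genes of the same processes, with the number of genes in brackets. Knockdown replicate 3 (dark red triangles) lies right of the controls for HSP70/HSP90 genes (0.64), oxidoreductases (0.54), degradation factors (0.42) and the translocon (0.43), and knockdown replicates 1 and 2 lie left of them for PERK arm targets (−0.65 and −0.996).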

How the data were processed

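Gene expression was measured by RNA sequencing of 6 MDA-MB-231 libraries. The authors used FastQC 0.9.5 and TopHat2 with the build GRCh38, per the submitters' processing notes. How reads were counted, with which annotation and strand setting, is not given in the sources used here. The deposited counts are whole reads per gene, and the deposited FPKM values are rounded to 2 decimals. Coordinates and GC content came from GENCODE 29 on GRCh38 (30871 of 31582 identifiers matched without the version). Counts were filtered with filterByExpr, scaled by TMM and tested with edgeR 4.0.16 (quasi-likelihood F-test, R 4.3.3), adjusted over all 16394 genes tested with a threshold of 0.05. The SE was taken as |log2 fold change| / √F, CPM uses TMM-scaled library sizes, and per-library differences use log2 CPM with a prior count of 2. The GC correction subtracts a lowess trend (span 0.3) per library. Alternatives were DESeq2 1.42.0, limma 3.58.1 (voom, and log2 FPKM), other scalings and filters, a replicate block and each library left out. Scripts were tested on simulated data.

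The 39 genes and the lists were chosen with earlier results of these data known. Values in every library are given for HSPA5, HSP90B1, XBP1, ATF6, ERN1, EIF2AK3, every member at an unadjusted p below 0.05, and members with non-overlapping groups and an absolute log2 fold change of at least 0.5. Of each list of other genes, up to 4 at an unadjusted p below 0.05 are named, largest first, with a mean log2 CPM of at least 1. Values for other genes were chosen after they were seen.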

Additional observations from a re-analysis of the deposited data

How the results depend on the processing

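Of the 39 genes, 0 passed edgeR's adjusted threshold, against 5 with no low-count filter (PDIA4, MANF, CRELD2, PPIB and EDEM3, with 988 genes in all) and 0 to 10 with 1 library left out. The 10 arose without knockdown replicate 2 (2604 genes in all), and were PDIA4, P4HB, ERP29, SDF2L1, MANF, CRELD2, PPIB, SIL1, EDEM3 and OS9. With 1 library left out, 2 to 13 genes were higher and 0 to 4 lower at a nominal p below 0.05. On each of the 3 log2 FPKM scales, 3 were higher and 4 lower. The shares of all genes were computed only for the filtered log2(FPKM + 1) scale, at 5.5% and 10.7%. On the filtered log2(FPKM + 0.1) scale the median of all genes moved to −0.11. The median of the 39 stayed positive in every setting, from 0.01 on the filtered log2(FPKM + 1) scale to 0.27 without knockdown replicate 2. CALR was at −2.20 with no low-count filter, where it passed (edgeR adjusted p = 1.45e-19). HSPA5, XBP1 and ATF6, all near 0, changed sign. HSPA5 was at −0.16 with library size alone, −0.0855 with limma-voom, −0.0289 with the filter of 1 CPM in every library and −0.21 on the FPKM scales. XBP1 was at −0.11 with library size alone, −0.0059 with limma-voom and −0.13 on the FPKM scales. ATF6 was at 9.2e-05 with DESeq2's factors in edgeR, 3.9e-05 with DESeq2, 0.0044 with no filter and 0.23 after the GC correction. With 1 library left out, HSPA5 ranged from −0.43 to 0.25, XBP1 from −0.25 to 0.21 and ATF6 from −0.0652 to 0.0466. The cause of these moves was not tested.

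Replicate numbers did not pair the libraries: same-numbered libraries had correlations of 0.20, −0.12 and −0.22, and not every library correlated best with its own number. With the replicate block 6 of the 39 genes were higher and 3 lower at a nominal p below 0.05. The shares of all genes in that fit were not computed, so these counts cannot be set against them. In that fit 0 of the 39 passed the adjusted threshold (0 of all 16394 genes), HSPA5 was at −0.0880 and XBP1 at −0.0074. With the block and the GC correction, HSPA5 was at −0.0500, XBP1 at −0.0424 and ATF6 at 0.20.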
